A study of Mus musculus with 12 samples.

Results

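Rab proteins are small GTPases that sit on the membranes of vesicles and organelles and decide where a membrane travels and with what it fuses. Each cycles between a GDP-bound form, held in the cytosol by a GDP dissociation inhibitor (GDI), and a GTP-bound form on the membrane, which recruits effectors such as motors and tethers. Exchange factors switch a Rab on and GTPase-activating proteins (GAPs) switch it off. In the gonad, membrane traffic carries hormones and growth factors out of the supporting and steroid-producing cells, takes up lipoproteins, recycles junction proteins and builds the acrosome of the spermatid. The 59 Rab genes described here are all genes whose symbol is Rab followed by a number and, where there is one, a paralogue letter. All 59 were on both arrays of the study, among 19938 genes on the adult array and 18194 on the postnatal array. A gene with several probe sets is represented by the brightest, taken by its mean across every array of that platform, so that level chose the probe set and no difference between groups did.

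The study measured mouse gonads with and without Foxl2, a forkhead factor that granulosa cells of the follicle need to keep their identity. The adult groups were whole ovaries of 2 wild-type animals, whole ovaries of 3 mutants given in the labels as Foxl2 flox/flox x CreEBD, and 0.25 of a testis from each of 3 wild-type males, all from single animals at 8 weeks that had been perfused with saline. The labels used here do not say what drives the Cre or when the gene was deleted. The postnatal groups were 2 pools of wild-type and 2 pools of Foxl2 knockout (KO) ovaries at postnatal day 3 (P3), each of more than 10 females. Adult values are RMA levels on a log2 scale and P3 values are linear MAS5 signals from another platform, so the ages were never fitted together. A gene was called where its Benjamini-Hochberg adjusted p from limma, over all genes of its array, was under 0.05. Differences are in log2 units, each followed by its standard error (SE) from limma.

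The arrays matched their labels. Foxl2 was lower in every adult mutant ovary (5.73 to 6.04) than in either wild-type ovary (8.75 and 8.81), and the testes lay at 5.22 to 5.38. At P3 both KO pools (186.4 and 153.7) were under both wild-type pools (814.5 and 829.9). The mean level of 8 spermatid markers was 10.89 to 10.98 in the testes and 3.81 to 4.0 in all 5 adult ovaries. Replicates correlated across genes at 0.989 or more among the testes and among the mutant ovaries. The 2 adult wild-type ovaries correlated at 0.976 and stood apart in some genes, with a mean of 3 corpus luteum markers of 8.53 in wild-type ovary 1 and 10.53 in wild-type ovary 2 and a mean of 8 oocyte markers of 7.82 and 5.84.

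The promoter windows of 4 Rab genes that moved in adult mutant ovary are printed here to show what lies around their start sites, for 3 genes that were higher (Rab31, Rab3b and Rab11a) and 1 that was lower (Rab33a). They come from RefSeq on GRCm38.p6, run from 250 bases before to 50 after the start in the gene's own direction, and lie at chr17:65772703-65773002 on the minus strand (Rab31), chr4:108878820-108879119 on the plus strand (Rab3b), chr9:64737707-64738006 on the minus strand (Rab11a) and chrX:48519035-48519334 on the plus strand (Rab33a). Capitals mark every match on either strand to 5 short motifs: a forkhead motif TGTTTAC, a Sox motif AACAAT, an Nr5a motif CAAGGTCA, a TATA box TATAAA and a GC box GGGCGG.
Rab31: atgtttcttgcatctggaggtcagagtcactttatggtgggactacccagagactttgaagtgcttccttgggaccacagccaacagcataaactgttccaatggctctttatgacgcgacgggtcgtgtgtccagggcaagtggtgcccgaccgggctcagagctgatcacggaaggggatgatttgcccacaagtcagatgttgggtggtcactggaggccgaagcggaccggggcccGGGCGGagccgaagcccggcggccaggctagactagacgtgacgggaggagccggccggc
Rab3b: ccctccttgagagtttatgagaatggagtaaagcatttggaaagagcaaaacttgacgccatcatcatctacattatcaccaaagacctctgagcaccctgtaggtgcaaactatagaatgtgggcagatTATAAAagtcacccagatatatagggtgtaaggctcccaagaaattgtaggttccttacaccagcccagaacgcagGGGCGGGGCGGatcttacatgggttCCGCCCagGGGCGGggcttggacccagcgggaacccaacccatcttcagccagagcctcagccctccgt
Rab11a: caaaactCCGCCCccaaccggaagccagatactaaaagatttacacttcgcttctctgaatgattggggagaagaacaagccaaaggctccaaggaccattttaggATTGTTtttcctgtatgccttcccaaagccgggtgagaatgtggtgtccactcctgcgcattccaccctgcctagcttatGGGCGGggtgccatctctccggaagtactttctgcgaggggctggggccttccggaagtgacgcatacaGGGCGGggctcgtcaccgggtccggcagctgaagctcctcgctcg
Rab33a: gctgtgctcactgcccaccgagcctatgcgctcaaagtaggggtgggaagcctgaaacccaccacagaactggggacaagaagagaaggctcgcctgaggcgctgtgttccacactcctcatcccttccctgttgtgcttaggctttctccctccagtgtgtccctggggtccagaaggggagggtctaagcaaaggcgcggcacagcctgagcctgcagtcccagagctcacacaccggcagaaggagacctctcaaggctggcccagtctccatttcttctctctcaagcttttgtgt
Rab31 held 1 GC box, Rab3b held a TATA box and 4 GC boxes of which a pair overlap, Rab11a held a Sox match and 3 GC boxes, and Rab33a held none of the 5 motifs. Of the 59 Rab genes, 48 matched the RefSeq table, with 60 windows, and Rab7b and Rab4a were not among them. GC boxes were in 68.3% of the Rab windows and in 35.7% of all 32851 windows of the same length. The other motifs were in smaller shares of the Rab windows than of all windows: forkhead in 3.33% against 3.65%, Sox in 6.67% against 10.7%, the TATA box in 6.67% against 13.6%, and Nr5a in 0 of 60 against 1.56%. The forkhead matches were in Rab39b and Rab43. Of the 14 Rab genes called between adult mutant and wild-type ovary, 10 had a window. A link between motifs and calls was not tested. A match is a run of letters and not a measured binding site.

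Adult Foxl2 mutant ovaries were compared with wild-type ovaries to ask which Rab genes differ when Foxl2 is low. Of the 59 Rab genes 12 were higher and 2 lower, against a background of 16.2% of all genes called (9.55% higher and 6.66% lower). As shares, 20.3% of the Rab genes were higher and 3.39% lower. The risers were led by Rab7b, Rab4a, Rab31, Rab3b and Rab20, the 5 past 2-fold (3.92% of all genes rose that far), and went on with Rab11a, Rab12, Rab30, Rab40c, Rab4b, Rab18 and Rab6a. The fallers were Rab33a, by more than 2-fold (1.7% of all genes), and Rab3a. Most Rab genes moved little: the median difference over the 59 was 0.03, beside -0.02 over all genes, and 45 were not called. Over all 59 Rab genes the mutant and wild-type values did not overlap for 18 with the mutants higher and 5 with the mutants lower (30.5% and 8.47%), beside 19.3% and 20.6% of all genes (39.9% together). The 14 called genes are among them.

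**Figure D1:**
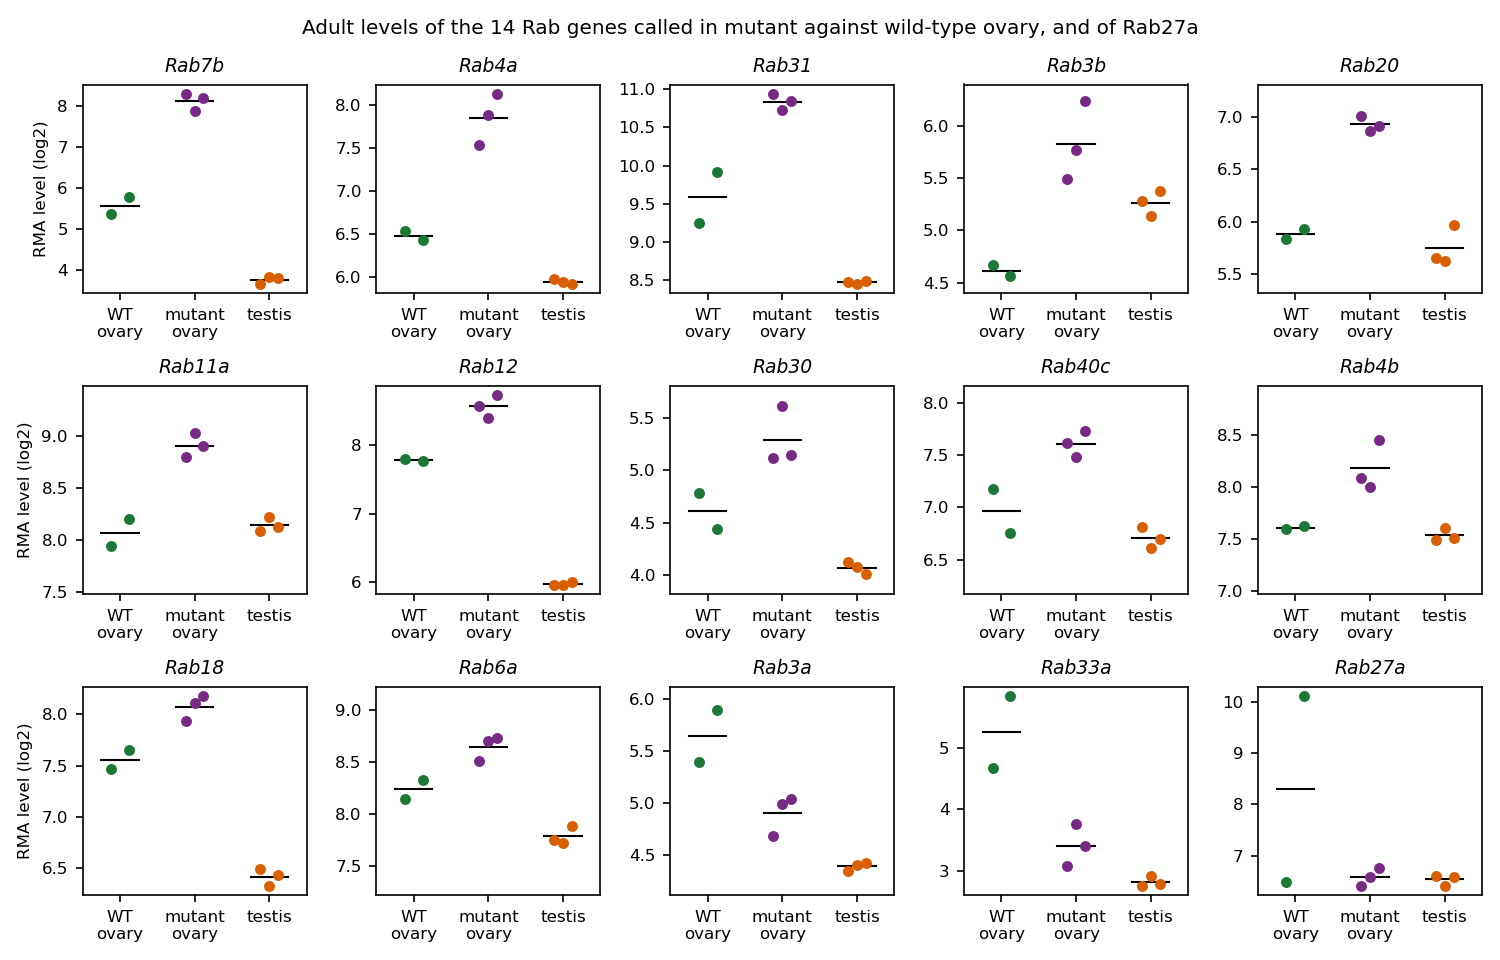
RMA levels (log2, y axis, a separate scale in each panel) of the 14 Rab genes called between adult mutant and wild-type ovary and of Rab27a, with each point an animal and each line a group mean. In the 12 risers every mutant ovary lies above both wild-type ovaries and above all 3 testes, and the last panel shows wild-type ovary 2 at 10.11 for Rab27a with the other 7 arrays at 6.76 or less.

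The largest difference in the family was on the late endosome. Rab7b, which acts between late endosomes and the trans-Golgi network and is a separate gene from Rab7, read 5.36 and 5.79 in wild-type ovaries against 8.29, 7.87 and 8.2 in mutant ovaries. The difference was 2.55 ± 0.17 (SE, n = 3 and 2, limma adjusted p = 7.03e-06), or 5.86-fold. The 3 testes were lowest, at 3.68, 3.83 and 3.82, with wild-type ovary between testis and mutant ovary. The other members of the late endosome, lysosome and autophagosome group stayed between -0.16 and -0.02. Rab7 itself, which drives fusion of late endosomes with lysosomes, read 8.48 and 8.79 in wild-type and 8.32, 8.56 and 8.71 in mutant ovaries (-0.11 ± 0.14, limma adjusted p = 0.688), with overlapping groups.

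Among the 7 genes of the early endosome, 2 were higher (28.6%) and none lower, beside 9.55% and 6.66% of all genes. Rab31, which moves cargo between the trans-Golgi network and endosomes, read 9.25 and 9.92 in wild-type ovaries and 10.94, 10.73 and 10.85 in mutant ovaries (1.26 ± 0.17, n = 3 and 2, limma adjusted p = 0.000584). Rab20, a Rab of endosomes and phagosomes, read 5.83 and 5.93 against 7.01, 6.87 and 6.92 (1.05 ± 0.14, limma adjusted p = 0.000628). In both genes the mutant arrays lay close together and above the wild-type pair, the difference by which they were picked. The Rab5 genes, which govern the fusion of early endosomes, were not called: Rab5a differed by 0.06 ± 0.14, Rab5b by 0.06 ± 0.11 and Rab5c by 0.16 ± 0.12. Rab21 and Rab22a were not called either (0.16 and -0.05).

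Of the 9 genes of the recycling endosome, 3 were higher (33.3%) and none lower, beside 9.55% and 6.66% of all genes. Rab4a, which returns receptors from early endosomes to the surface by a fast route, read 6.53 and 6.43 in wild-type and 7.54, 7.89 and 8.13 in mutant ovaries (1.38 ± 0.16, n = 3 and 2, limma adjusted p = 0.000284). Its paralogue Rab4b read 7.59 and 7.62 against 8.08, 8.0 and 8.45 (0.57 ± 0.14, adjusted p = 0.0217). Rab11a, the Rab of the slower route through the pericentriolar recycling endosome, read 7.94 and 8.2 against 8.79, 9.02 and 8.9 (0.84 ± 0.12, adjusted p = 0.00103). Each of the 3 genes was above the wild-type pair in every mutant animal, the difference by which they were picked. Of the 9 recycling genes 44.4% had the mutants higher without overlap, beside 19.3% of all genes. Rab11b, the paralogue of Rab11a, differed by 0.18 ± 0.11 and was not called (adjusted p = 0.321). The dimmer of its 2 adult probe sets differed by -0.62, so its direction depends on the probe set. Rab25, the epithelial member related to Rab11, differed by -0.11, and Rab14, Rab15, Rab17 and Rab35 by 0.02 to 0.28, none of them called.

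Of the 14 exocytic Rab genes 2 were higher and 1 lower. These shares (14.3% and 7.14%) were near those of all genes (9.55% and 6.66%). Rab3b, a Rab of regulated secretion, read 4.67 and 4.56 in wild-type and 5.49, 5.77 and 6.24 in mutant ovaries (1.22 ± 0.2, n = 3 and 2, limma adjusted p = 0.00223). Rab3a, best known from synaptic vesicles, read 5.4 and 5.89 in wild-type and 4.69, 4.99 and 5.04 in mutant ovaries (-0.74 ± 0.17, adjusted p = 0.0151). These paralogues were therefore called in opposite directions, while Rab3c (-0.06) and Rab3d (-0.07) were not called. Rab12, listed here with the exocytic genes and known also for carrying the transferrin receptor from recycling endosomes to lysosomes, read 7.79 and 7.76 against 8.56, 8.38 and 8.72 (0.78 ± 0.13, adjusted p = 0.00198). Rab8a, Rab8b, Rab10 and Rab13, which deliver membrane to the cell surface, were not called (-0.28 to 0.3), and neither were Rab26, Rab27b, Rab37 and Rab44 (-0.12 to 0.18).

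Of the 16 genes of the endoplasmic reticulum (ER) and Golgi, 3 were higher and 1 lower. These shares were 18.8% and 6.25%, beside 9.55% and 6.66% of all genes. Rab33a, a Golgi and vesicle Rab related to the autophagy factor Rab33b, had the largest fall in the family. It read 4.67 and 5.84 in wild-type ovaries and 3.07, 3.76 and 3.4 in mutant ovaries (-1.85 ± 0.3, n = 3 and 2, limma adjusted p = 0.00187), or 3.61-fold lower. The wild-type ovaries set its size: the difference was -2.43 with wild-type ovary 1 left out and -1.26 with wild-type ovary 2 left out, and it was called in both cases. The testes were lower again, at 2.76, 2.92 and 2.78. Rab33a is dim: its mean lay at percentile 46.0 of all genes in wild-type ovary, 16.4 in mutant ovary and 8.1 in testis. Its fold therefore rests on low levels. Rab3b and Rab30 were dim in wild-type ovary as well, both at percentile 35.5, and lay at 54.2 and 46.4 in mutant ovary. Rab33b differed by -0.33 ± 0.12 and missed the threshold (adjusted p = 0.0869), although its groups did not overlap. Rab30, a Golgi Rab, read 4.78 and 4.44 against 5.12, 5.62 and 5.15 (0.69 ± 0.18, adjusted p = 0.0242). Rab18, which sits on the ER and lipid droplets, read 7.47 and 7.65 against 7.94, 8.11 and 8.18 (0.51 ± 0.13, adjusted p = 0.0205). Rab6a, which carries traffic back through the Golgi, had the smallest called difference, with 8.15 and 8.33 against 8.51, 8.7 and 8.73 (0.41 ± 0.12, adjusted p = 0.0454). The Rab1 and Rab2 genes of ER-to-Golgi transport were not called (-0.27 to -0.03). Rab6b, Rab19, Rab34, Rab36, Rab39, Rab39b and Rab43 were not called either (-0.26 to 0.33).

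In the remaining groups 1 gene was called. Rab40c, which carries a SOCS box and acts in ubiquitin ligase complexes, read 7.18 and 6.76 in wild-type and 7.62, 7.48 and 7.73 in mutant ovaries (0.64 ± 0.15, n = 3 and 2, limma adjusted p = 0.0166). Its paralogue Rab40b differed by 0.11 and was not called. The lysosome-related organelle genes Rab29, Rab32 and Rab38 differed by -0.22 to 0.4, and Rab42, placed in no group, by -0.14. Of the cilium genes, Rab23 differed by 0.02, and Rab28, at 6.37 and 6.23 against 6.56, 6.94 and 6.74, did not pass although its groups did not overlap (0.45 ± 0.14, adjusted p = 0.0513). Differences between paralogues were not tested, so a called gene beside an uncalled one is not shown to respond differently.

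The wild-type group of 2 ovaries decided several of the smaller calls. Without wild-type ovary 2, Rab3a (-0.49, limma adjusted p = 0.0953), Rab30 (0.52, adjusted p = 0.129) and Rab40c (0.43, adjusted p = 0.0851) lost their calls. Without wild-type ovary 1, Rab18 (0.42, adjusted p = 0.0752) and Rab6a (0.32, adjusted p = 0.153) lost theirs. Mutant ovaries mattered too: Rab3a was lost without mutant ovary 1 (-0.63, adjusted p = 0.0507), Rab30 without mutant ovary 2 (0.53, adjusted p = 0.0509), and Rab40c (0.58, adjusted p = 0.0516) and Rab18 (0.46, adjusted p = 0.0599) without mutant ovary 3. Rab6a was also lost without mutant ovary 2 or 3 (0.38 and 0.36) or without any of the 3 testes (0.41 each time, adjusted p 0.0751 to 0.0841). The count of lower genes was 1 without wild-type ovary 2 or without mutant ovary 1, and 3 without wild-type ovary 1, where Rab27a joined it. With the 2 ovary groups fitted alone, 8 of the 14 genes were called. Rab7b, Rab4a, Rab31, Rab3b, Rab20, Rab11a and Rab12 kept their calls whichever array was left out, and so did Rab33a, although its size moved. Rab4b kept its call in these fits too, but lost it with the 2 ovary groups fitted alone.

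Rab27a, which docks secretory lysosomes and melanosomes at the plasma membrane, was singled out after its values were seen. It read 6.48 in wild-type ovary 1 and 10.11 in wild-type ovary 2, against 6.42, 6.58 and 6.76 in the mutant ovaries and 6.61, 6.42 and 6.59 in the testes. Only wild-type ovary 2 stood away from the other arrays, and the difference between the 2 wild-type ovaries ranked 5 among 19938 genes. The difference of mutant from wild-type ovaries was -1.71 ± 0.75 and did not pass (n = 3 and 2, limma adjusted p = 0.164). Without wild-type ovary 1 it became -3.53 (adjusted p = 2.51e-07), whereas leaving out wild-type ovary 2 gave 0.11 (adjusted p = 0.745). The corpus luteum mean was also 10.53 in wild-type ovary 2 against 8.53 in wild-type ovary 1, and lay at 8.2, 9.71 and 8.92 in the mutant ovaries. Other marker means differed between the wild-type ovaries too. In wild-type ovary 2 the adipocyte mean (5.06 against 4.48) and the endothelial mean (8.08 against 7.35) were higher. The oocyte mean was lower there (5.84 against 7.82). The part of any cell type in the Rab27a value was not tested. Rab27a and Rab33a were the 2 of 59 Rab genes (3.39%) that differed by at least 2-fold between the wild-type ovaries, beside 3.41% of all genes.

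**Figure D2:**
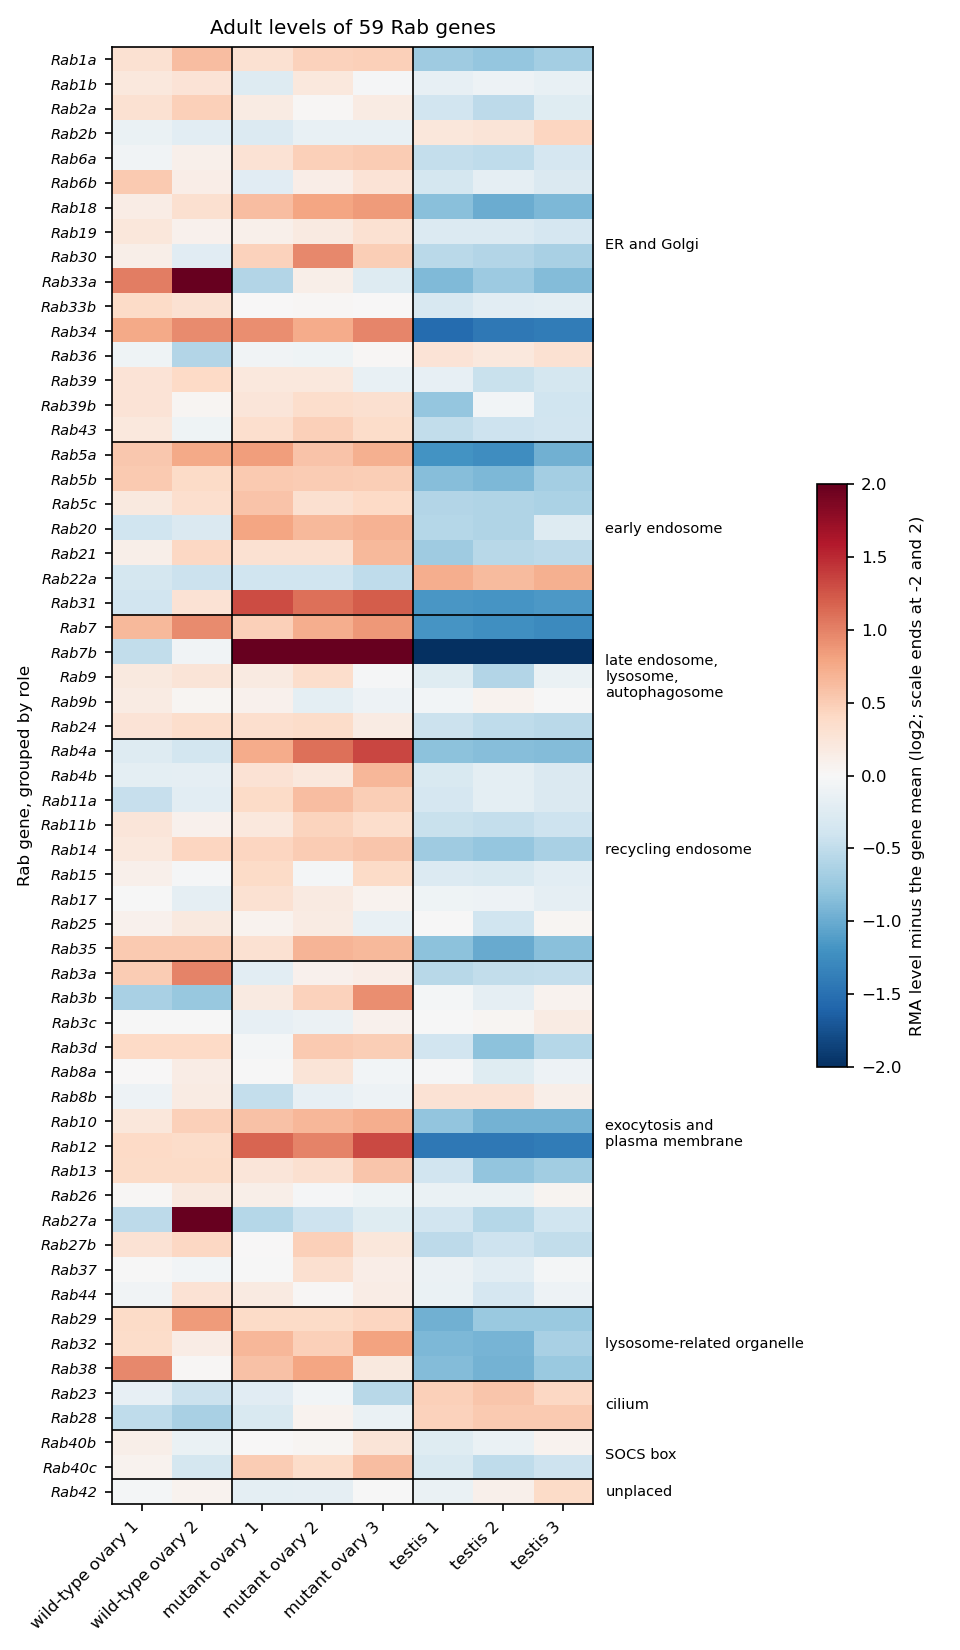
RMA level of each of the 59 Rab genes (rows, grouped by role) minus that gene's mean over the 8 adult arrays (columns), in log2 units, with colours ending at -2 and 2. Rab7b, Rab31, Rab4a and Rab12 are highest in the mutant ovaries, most rows are lowest in the 3 testes, and Rab22a, Rab23 and Rab28 are highest there.

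Testes were compared with wild-type ovaries to see how the family differs between the normal organs. Of the 59 Rab genes 36 were lower in testis and 6 higher, against a background of 60.3% of all genes called (35.9% lower and 24.4% higher). The median difference of testis from ovary was -0.56 over the Rab genes and -0.15 over all genes. All 16 ER and Golgi genes were called, 14 lower and 2 higher, and so were the 3 lysosome-related organelle genes, all lower (-1.43 to -1.08). Of the recycling genes 4 of 9 were called, and of the exocytic genes 7 of 14. Differences between these groups were not tested. The 2 genes listed under cilium, Rab23 and Rab28, were higher in testis, and Rab34, which also acts in cilium formation and is listed with the Golgi genes, was lower. At 2-fold or more 2 Rab genes were higher and 18 lower, where 16.3% and 18.4% of all genes were.

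The largest falls spread over several compartments. Rab33a was lower in testis by a difference of -2.44 ± 0.3 (SE, n = 3 and 2, limma adjusted p = 3.48e-05), which became -3.02 with wild-type ovary 1 left out and -1.85 with wild-type ovary 2 left out. Rab34, which also positions lysosomes, read 7.23 and 7.42 in wild-type ovaries and 4.93, 5.05 and 5.08 in testes (-2.31 ± 0.13, adjusted p = 9.63e-08). Rab7 read 8.48 and 8.79 against 6.66, 6.61 and 6.57 (-2.02 ± 0.14, adjusted p = 5.33e-07), so both Rab7 and Rab7b (-1.8 ± 0.17) were lower in testis although only Rab7b was called between mutant and wild-type ovary. Rab5a read 8.83 and 9.06 against 7.1, 7.05 and 7.33 (-1.79 ± 0.14, adjusted p = 8.97e-07), and Rab5b (-1.26) and Rab5c (-0.88) fell with it. Rab12 read 7.79 and 7.76 against 5.97, 5.97 and 6.0 (-1.79 ± 0.13, adjusted p = 4.81e-07). In each of these genes, picked for the largest falls, the 3 testes lay close together and under both wild-type ovaries.

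The 6 genes higher in testis were Rab28, Rab22a, Rab23, Rab3b, Rab36 and Rab2b. Rab28, known from cilia and the outer segments of photoreceptors, read 7.34, 7.4 and 7.39 in testes and 6.37 and 6.23 in wild-type ovaries (1.08 ± 0.14, n = 3 and 2, limma adjusted p = 5.26e-05). Rab23, a negative regulator of hedgehog signalling that acts at the cilium, read 7.36, 7.43 and 7.29 against 6.72 and 6.45 (0.78 ± 0.16, adjusted p = 0.00186). Rab22a, an endosomal Rab, read 8.96, 8.86 and 8.95 against 7.88 and 7.81 (1.08 ± 0.1, adjusted p = 6.01e-06), in contrast to its near relative Rab31, which was lower in testis (-1.12 ± 0.17, adjusted p = 0.000171). Rab2b read 6.49, 6.51 and 6.69 against 6.13 and 6.05 (0.47 ± 0.13, adjusted p = 0.00753), while its paralogue Rab2a was lower by a difference of -0.77 ± 0.11 (adjusted p = 0.00014). Rab36, a Golgi and late endosome Rab, read 6.37, 6.31 and 6.4 against 6.0 and 5.51 (0.61 ± 0.16, adjusted p = 0.00612) and lost its call without wild-type ovary 2 (0.36, adjusted p = 0.0582). Rab3b (0.65 ± 0.2, adjusted p = 0.0165) was lost without testis 3 or wild-type ovary 2 (0.6 in each, adjusted p 0.0542 and 0.0629). Rab27a differed by -1.75 ± 0.75 (adjusted p = 0.0667), by -3.57 with wild-type ovary 1 left out and by 0.06 with wild-type ovary 2 left out.

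**Figure D3:**
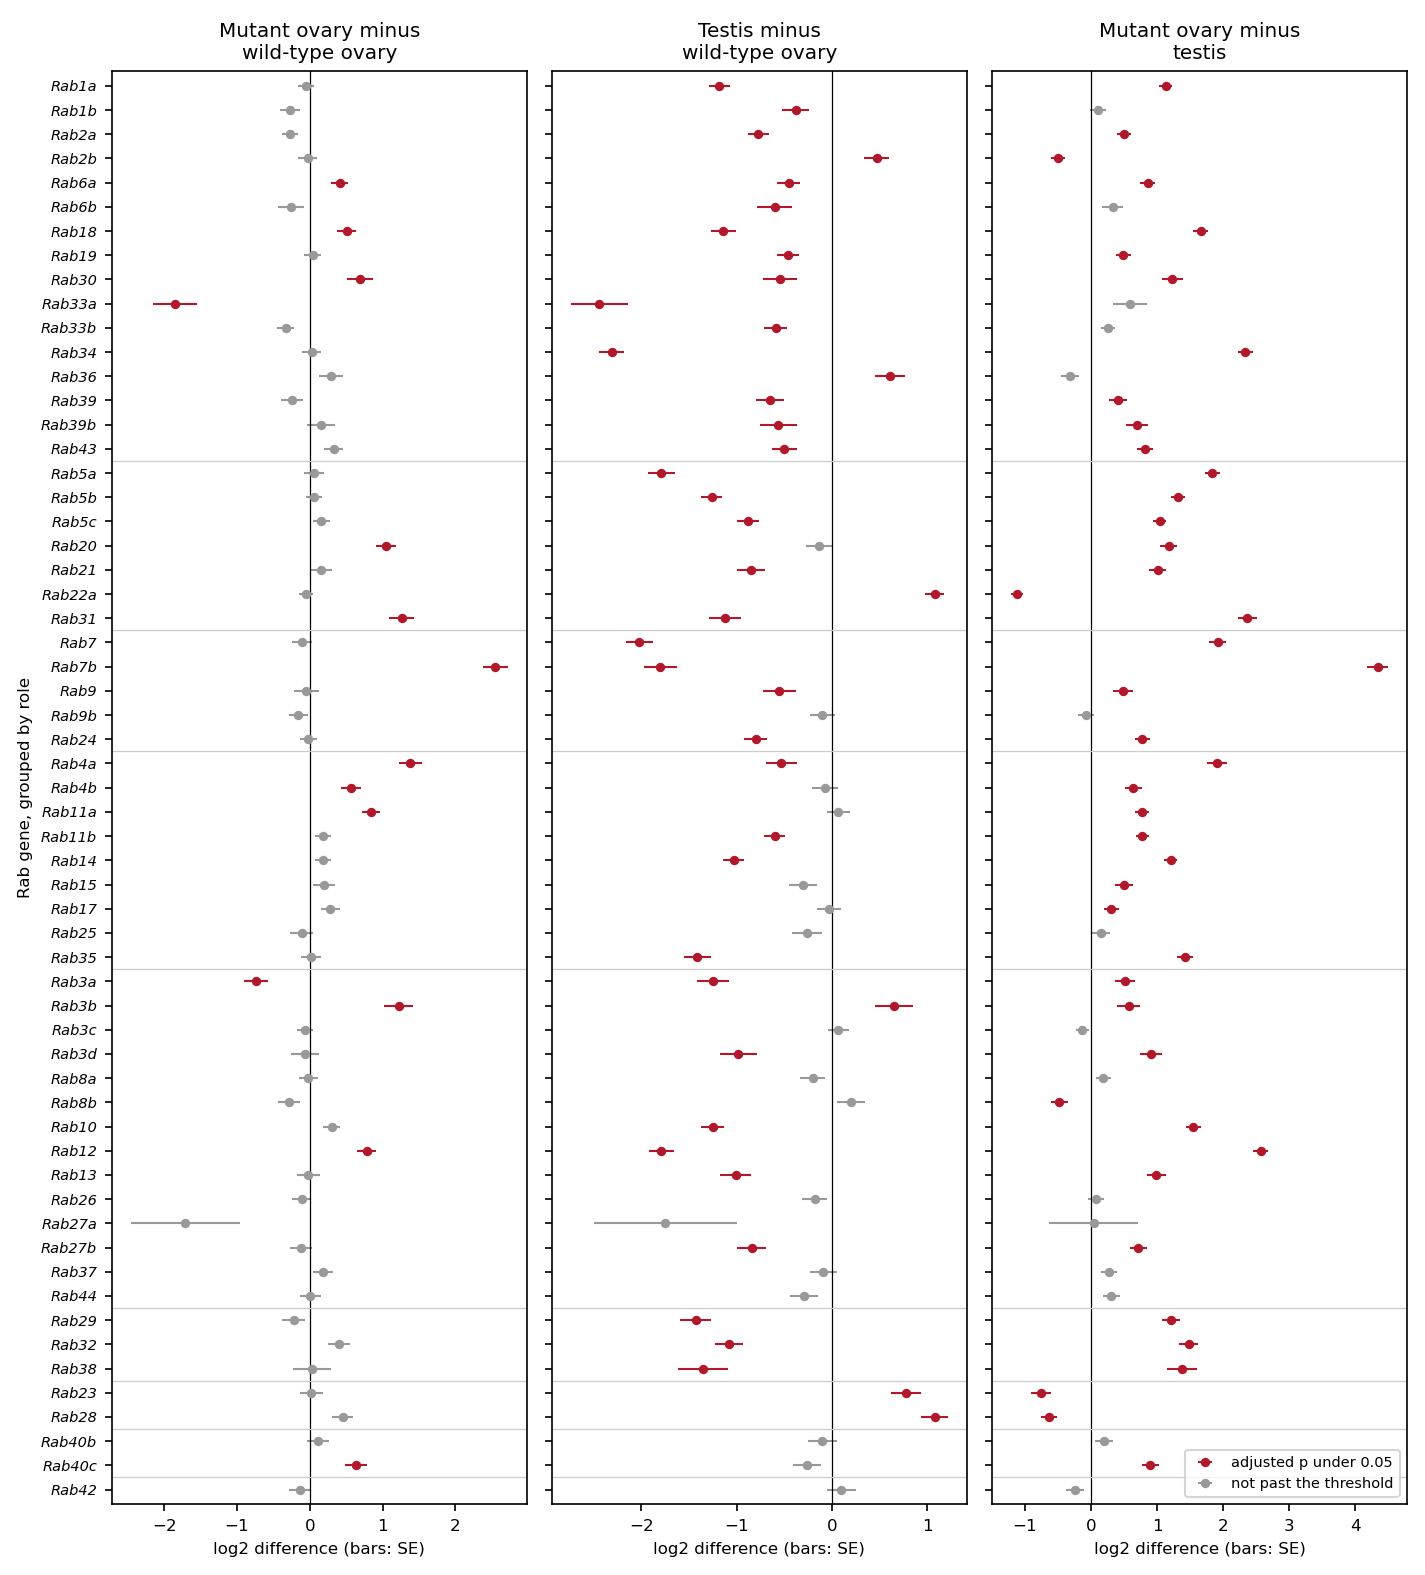
Log2 differences (x axis) with SE bars for the 59 Rab genes (y axis, grouped by role) in the 3 adult comparisons, with red points at an adjusted p under 0.05. The left panel holds 12 red points above 0 and 2 below, the middle panel 6 above and 36 below, and the right panel 39 above and 5 below.

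Mutant ovaries were also set against testes, since Foxl2 is low in both. Of the 59 Rab genes 39 were higher in mutant ovary and 5 lower, against a background of 61.8% of all genes called (37.5% higher and 24.3% lower). At 2-fold or more the counts were 20 and 1, where 20.2% and 15.8% of all genes were. The median difference was 0.7 over the Rab genes and 0.14 over all genes. The largest were Rab7b (4.34 ± 0.16, n = 3 and 3, limma adjusted p = 1.82e-09), or 20.3-fold, then Rab12 (2.57 ± 0.11, adjusted p = 8.85e-09), Rab31 (2.37 ± 0.15, adjusted p = 1.58e-07), Rab34 (2.34), Rab7 (1.92) and Rab4a (1.91 ± 0.15, adjusted p = 7.85e-07). The 5 lower genes were Rab22a (-1.12 ± 0.09), Rab23 (-0.76 ± 0.15), Rab28 (-0.63 ± 0.12), Rab2b (-0.5 ± 0.11) and Rab8b (-0.48 ± 0.13), of which the first 4 were also higher in testis than in wild-type ovary. In the mutant ovaries Rab22a read 7.83, 7.84 and 7.73, Rab23 read 6.66, 6.83 and 6.32, and Rab2b read 5.98, 6.1 and 6.1, under every testis. Rab34 read 7.41, 7.22 and 7.45 there, above every testis. In the testes Rab31 read 8.47, 8.45 and 8.48, and Rab4a read 5.97, 5.94 and 5.92. Rab8b, a Rab of delivery to the plasma membrane, read 7.16, 7.48 and 7.54 in mutant ovaries and 7.93, 7.93 and 7.76 in testes.

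Over all 59 Rab genes 43 (72.9%) had all 3 mutant ovaries above all 3 testes, beside 42.8% of all genes. The 12 genes that rose in mutant ovary are among them and were each called higher than in testis. Since they were chosen by their high mutant values, this is a description with no weight of its own. Of the 12, 7 were lower in testis than in wild-type ovary (Rab7b, Rab4a, Rab31, Rab12, Rab30, Rab18 and Rab6a), 1 was higher (Rab3b) and 4 were not called (Rab20, Rab11a, Rab40c and Rab4b). For Rab3b the order was wild-type ovary at 4.56 to 4.67, testis at 5.28, 5.14 and 5.38, and mutant ovary at 5.49 to 6.24. Its call between mutant ovary and testis (0.57 ± 0.18, n = 3 and 3, limma adjusted p = 0.0184) was lost without testis 2 or mutant ovary 3. The 3 adult comparisons share their arrays, so these values stand side by side and are not independent of each other.

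Markers of several cell types moved with these groups. The mean of 8 Sertoli cell markers was 5.95 and 5.36 in wild-type ovaries, 8.36 to 8.54 in mutant ovaries and 6.43 to 6.5 in testes, with 7 of the 8 higher in mutant than in wild-type ovary. The mean of 7 granulosa cell markers was 9.69 and 8.85, then 7.02 to 7.28 in mutant ovaries, with 5 of 7 lower. Of the other granulosa cell markers Amhr2 was higher (1.92 ± 0.29, limma adjusted p = 0.00121) and Fshr was not called (-0.04 ± 0.55). The mean of 7 leukocyte markers was 6.08 and 6.17 in wild-type ovaries, 6.47 to 6.94 in mutant ovaries and 4.8 to 4.86 in testes, with 2 of 7 higher in the mutants. All 6 smooth muscle markers and 3 of 5 endothelial markers were lower in mutant ovaries, and 2 of 7 epithelial markers were higher. Over all genes 9.55% were higher and 6.66% lower in mutant than in wild-type ovary. In testis the endothelial mean was 4.48 to 4.56 against 7.35 and 8.08 in wild-type ovaries. Their part in the Rab differences was not tested. In whole organs fewer cells of a type and less RNA per cell cannot be told apart.

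The regulators and partners of the Rab proteins were taken from 4 lists. Between mutant and wild-type ovary, 0 of 7 genes for GDI, escort and prenylation proteins were higher and 1 lower, 5 of 32 exchange factors were higher and 3 lower, 10 of 38 GAPs were higher and 1 lower, and 10 of 41 effectors were higher and 4 lower. The medians were -0.12, 0.03, 0.17 and 0.01 beside -0.02 for all genes. Called shares were 14.3%, 25%, 28.9% and 34.1%, beside 16.2% of all genes.

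Of the 5 measured Rab11 family interacting proteins, which link Rab11 to motors and tethers, 3 were higher, and Rab11fip2 (0.01 ± 0.11) and Rab11fip5 (-0.08 ± 0.18) were not called. These 5 were set apart from the 41 effectors after their values were seen. Of the 41 effectors 24.4% were called higher, beside 9.55% of all genes. Rab11fip3 read 6.47 and 6.35 in wild-type ovaries, 8.37, 8.4 and 8.51 in mutant ovaries and 6.88 to 7.07 in testes (2.02 ± 0.12 for mutant against wild type, n = 3 and 2, limma adjusted p = 2.34e-06). Rab11fip1 read 5.67 and 5.64 against 7.41, 7.08 and 7.64 (1.72 ± 0.16, adjusted p = 6.21e-05). Rab11fip4 read 5.34 and 5.76 against 6.79, 6.77 and 6.9 (1.27 ± 0.15, adjusted p = 0.000232). Myo5b, the myosin motor that moves Rab11 vesicles, read 6.21 and 5.31 against 7.89, 7.46 and 7.82 (1.97 ± 0.23, adjusted p = 0.000265). In all 4 the mutant ovaries lay above both wild-type ovaries. They were picked for the largest differences of their list, so this carries no weight of its own. Of the 41 effectors 31.7% had the mutants higher without overlap, beside 19.3% of all genes. The related motors Myo5a (-0.55, adjusted p = 0.0245) and Myo5c (-0.9, adjusted p = 0.0105) were lower.

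The GAPs with the largest differences were Tbc1d30, Evi5l, Sgsm3 and Tbc1d25. Tbc1d30 read 4.8 and 5.63 in wild-type and 7.07, 7.06 and 7.34 in mutant ovaries (1.94 ± 0.22, n = 3 and 2, limma adjusted p = 0.000226), with the testes at 4.26 to 4.56. Evi5l read 5.92 and 5.76 against 7.83, 7.64 and 7.64 (1.86 ± 0.12, adjusted p = 4.34e-06), and Sgsm3 6.39 and 6.23 against 8.23, 8.01 and 8.15 (1.82 ± 0.13, adjusted p = 8.12e-06). Evi5l at 8.23 to 8.31 and Sgsm3 at 7.97 to 8.23 were also above wild-type ovary in the testes, unlike Tbc1d30. Tbc1d25, a GAP tied to autophagy, differed by 1.37 ± 0.16 (adjusted p = 0.000274). Among exchange factors Rin3, which acts on the Rab5 group that includes Rab31, was higher by 0.97 ± 0.17 (adjusted p = 0.00346) and Sbf2 by 0.69 ± 0.1 (adjusted p = 0.00113), while Dennd5b (-0.94 ± 0.13) and Dennd2a (-0.65 ± 0.16) were lower. Chml, an escort protein for prenylation, was lower (-0.77 ± 0.16, adjusted p = 0.00887).

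In testis against wild-type ovary the same lists gave 1 higher and 4 lower of 7, 10 and 14 of 32 exchange factors, 17 and 16 of 38 GAPs, and 11 and 15 of 41 effectors. Over all genes 24.4% were higher and 35.9% lower. The effectors (26.8% and 36.6%) lay near these shares, and the exchange factors were at 31.2% and 43.8%. Of the Rab genes themselves 10.2% were higher and 61.0% lower, beside 44.7% and 42.1% of the GAPs, and the lists were not tested against each other. The prenylation genes moved in both directions. Chm, an escort protein, read 7.57 and 7.69 in wild-type ovaries and 5.46, 5.38 and 5.71 in testes (-2.11 ± 0.17, n = 3 and 2, limma adjusted p = 1.3e-06), and Rabggtb, the catalytic subunit of Rab geranylgeranyl transferase, 8.09 and 8.46 against 6.18, 6.18 and 6.24 (-2.08 ± 0.15, adjusted p = 6.08e-07). Rabggta, the other subunit of that enzyme, was higher (0.81 ± 0.12, adjusted p = 0.000127), and the escort protein Chml was not called (0.04 ± 0.16, adjusted p = 0.842). Tbc1d21, a testis GAP, read 9.22, 9.14 and 8.97 in testes and 3.6 and 3.64 in wild-type ovaries (5.49 ± 0.14, adjusted p = 2.5e-10). The Rab8 exchange factors Rab3il1 (2.95 ± 0.16) and Rab3ip (2.12 ± 0.12) were higher in testis, where Rab8a (-0.2 ± 0.13) and Rab8b (0.2 ± 0.15) were not called against wild-type ovary.

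**Figure D4:**
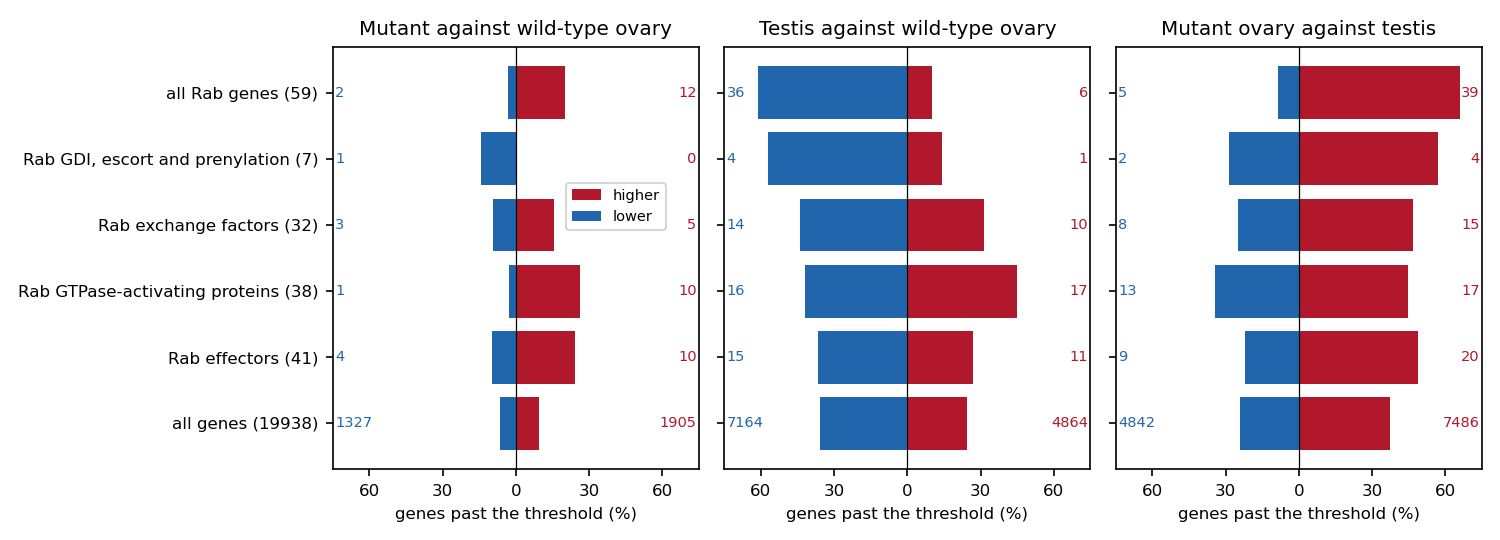
Share of genes called higher (red, right) and lower (blue, left) in percent (x axis) for the Rab genes, the 4 lists of regulators and effectors and all genes (y axis, with the number measured), in the 3 adult comparisons, with the counts at the panel edges. In the middle panel the Rab genes are mostly lower (36 against 6) while the GAPs are nearly even (17 against 16), beside 35.9% of all genes lower and 24.4% higher.

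At P3 no Rab gene was called between KO and wild-type ovaries, against a background of 0.324% of all genes called (59 of 18194, 0.137% higher and 0.187% lower). With limma 3 of the 59 had an unadjusted p under 0.05, where the background was 9.53%. Differences at P3 are of log2(signal + 16) and understate changes of dim genes. They ran from -0.95 to 1.33 with a median of -0.05, beside -0.01 over all genes. KO and wild-type pools did not overlap for 13 genes with the KO higher and 10 with the KO lower, where 19.3% and 19.7% of all genes (38.9% together) did so. None of the 4 lists of regulators and effectors had a called gene at P3, while 1 of 32 exchange factors, 1 of 38 GAPs and 8 of 39 effectors had an unadjusted p under 0.05.

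The lowest p-values at P3 belonged to Rab19, Rab5c, Rab26 and Rab9b. Rab19, a Golgi Rab, gave signals of 67.8 and 97.3 in wild-type pools against 248.3 and 210.6 in KO pools (1.33 ± 0.32, n = 2 and 2, limma adjusted p = 0.208). Rab5c gave 1807.2 and 1813.4 against 1143.3 and 1344.1 (-0.54 ± 0.14, adjusted p = 0.237). Rab26, a Rab of secretory granules, gave 15.6 and 16.5 against 47.5 and 39.6 (0.89 ± 0.36, adjusted p = 0.507), and Rab9b 45.1 and 22.4 against 5.1 and 13.6 (-0.95 ± 0.42, adjusted p = 0.572). All 4 separated the pools without passing. In adult mutant ovary these genes differed by 0.04, 0.16, -0.11 and -0.16, none of them called.

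None of the genes that rose in the adult mutant ovary was called at P3. Rab7b gave 165.1 and 228.5 in wild-type pools and 231.2 and 194.7 in KO pools (0.12 ± 0.29, n = 2 and 2, limma adjusted p = 0.951), with overlapping values. Rab4a gave 1310.6 and 1595.9 against 1292.1 and 1487.0 (-0.06 ± 0.16, adjusted p = 0.954), and Rab11a 9097.1 and 8598.3 against 8390.0 and 9200.1 (-0.01 ± 0.12, adjusted p = 0.989). Rab20 gave 124.7 and 119.8 against 170.8 and 187.3 (0.5 ± 0.29, adjusted p = 0.694), higher in both KO pools. Rab3b gave 113.3 and 83.9 against 96.4 and 33.5 (-0.61 ± 0.48, adjusted p = 0.791), a difference of the opposite sign to the adult with overlapping pools. Of the 14 genes called in the adult ovary, 4 separated the P3 pools in the same direction (Rab20, Rab6a, Rab40c and Rab33a), 4 in the opposite direction (Rab3a, Rab12, Rab30 and Rab31) and 6 overlapped. Among all genes at P3, 19.3% had both KO pools higher without overlap and 19.7% had both lower. For Rab30 and Rab31 the other P3 probe set differed in the adult direction (0.08 and 0.27). The intervals at P3 were wide for several dim genes, and a p that misses the threshold does not show that they were unaltered.

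**Figure D5:**
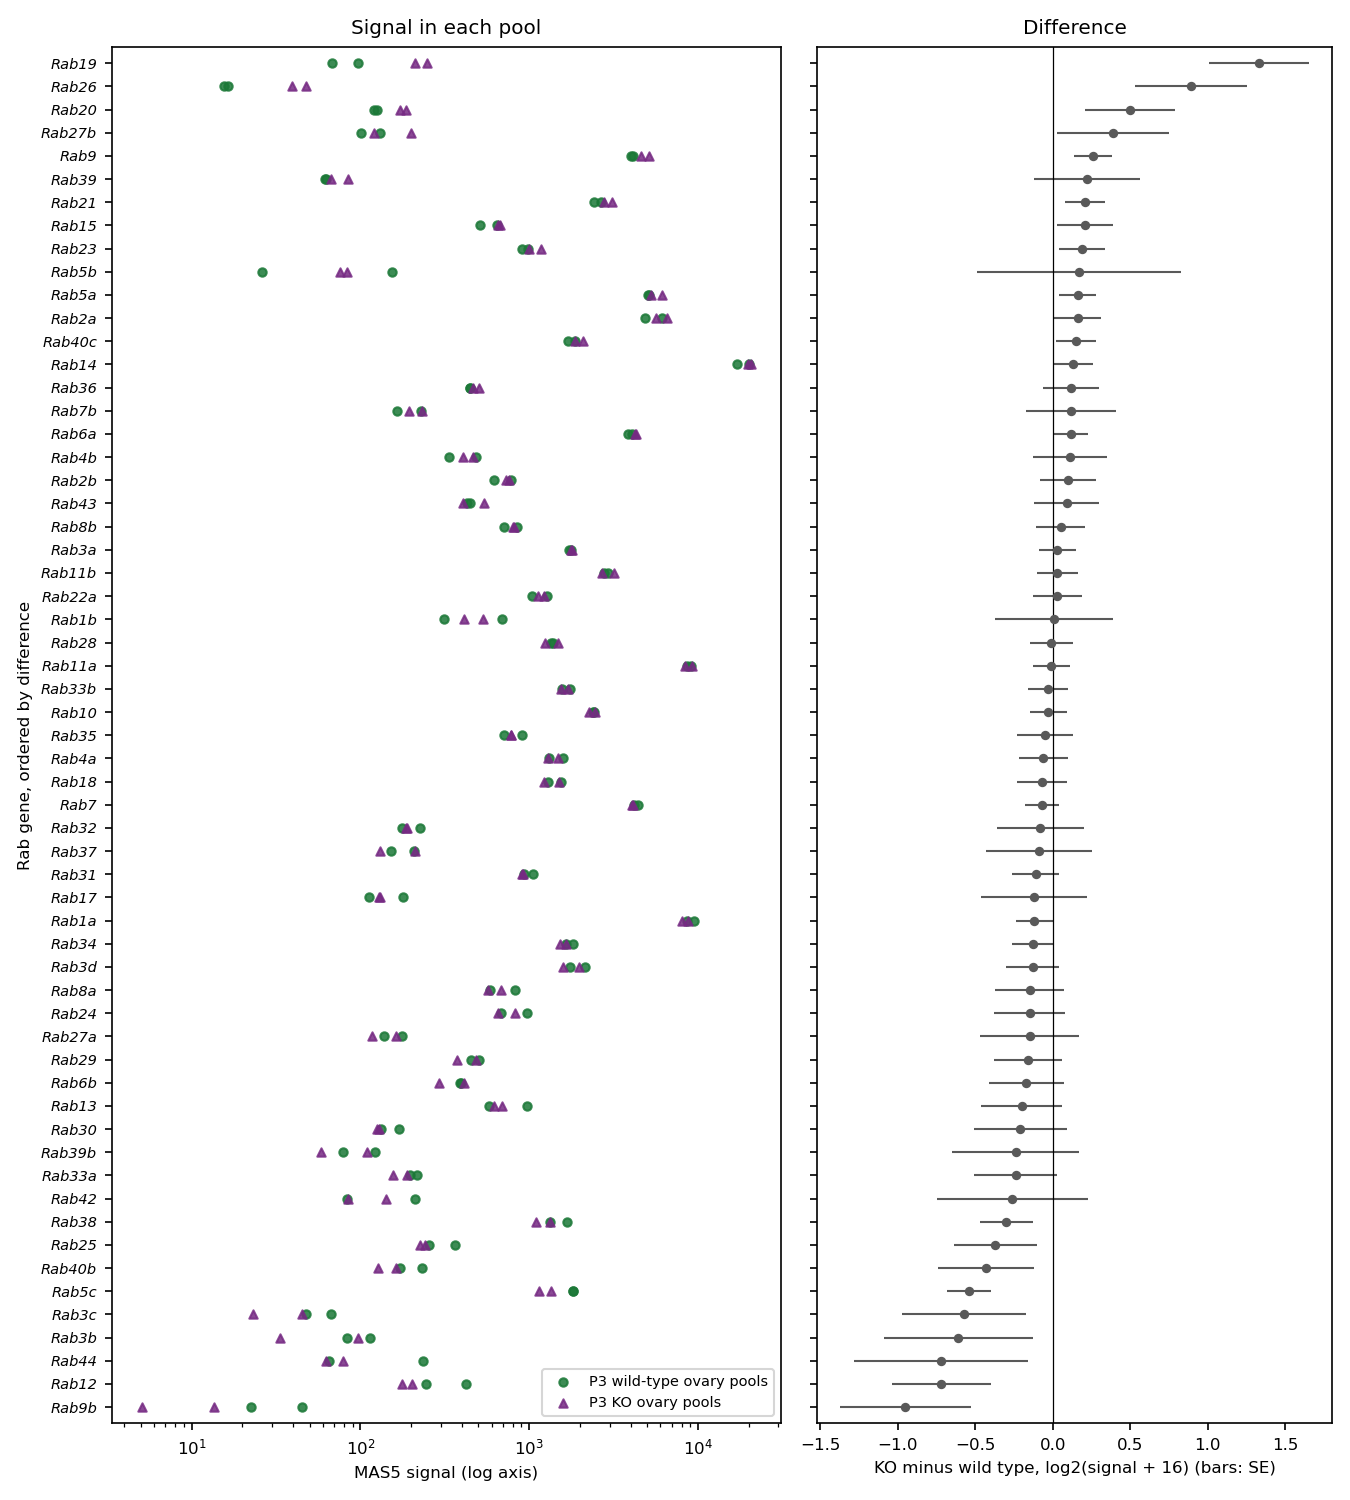
MAS5 signals of the 59 Rab genes in each P3 pool (left, log axis, circles for wild type and triangles for KO) and the difference of KO from wild type in log2(signal + 16) with SE bars (right), ordered by that difference. Rab19 is at the top with 1.33 and Rab9b at the bottom with -0.95, and most genes lie near 0.

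On the P3 array 38 of the Rab genes had more than 1 probe set, and in 28 of them the probe sets of a gene differed in the direction of the KO difference. On the adult array 3 genes had more than 1, of which 1 was split (Rab11b, at 0.18 and -0.62). At P3 the mean of 8 oocyte markers on the log2(signal + 16) scale was 12.21 in both wild-type pools against 11.4 and 11.19 in the KO pools, that of 8 Sertoli cell markers 7.6 and 7.13 against 8.34 and 8.32, and that of 7 granulosa cell markers 9.37 and 9.57 against 7.96 and 7.91. Their part in the Rab values was not tested.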

How the data were processed

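Total RNA of adult gonads (300 ng an array) and of P3 ovary pools (1 µg) was labelled and hybridised, per the labels' protocols. The authors deposited adult values as log2 levels made by RMA in the Affymetrix Expression Console, and P3 values as the linear intensity that MAS5 gives, as the submitters' processing notes name them. No software version is given in the sources used here. CodeLink labelling is described for P3 in the labels, which conflicts with MAS5, and this was not resolved. Genes were named from the platform annotation, updated through RefSeq (GRCm38.p6), using probe sets with a single gene (21789 of 35557 adult, 34958 of 45101 at P3).

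Tests used limma 3.58.1 in R 4.3.3 (lmFit, eBayes with an intensity trend, two-sided), with the 8 adult arrays in a single fit and the 4 P3 arrays as log2(signal + 16), and were checked on simulated data. P-values were adjusted over all genes of the array. Adult replicates are separate animals and P3 replicates separate pools, whose small number limits the precision. Deviations of same-numbered arrays correlated at r from -0.00279 to 0.079, all under 0.1, so the numbers were not taken as pairs. Values in every array of the groups compared are given for Rab genes called between mutant and wild-type ovary. The same holds for the 6 largest called differences in each direction elsewhere. At most 4 called genes per list of regulators are named, with the largest differences, and Myo5a, Myo5c, Rab11fip2, Rab11fip5, Rab27a and the 4 Rab genes of the lowest p at P3 were added after their values were seen. Alternatives were the mean of all probe sets, a level filter, no trend, a replicate block, a 2-fold minimum, median centring, the compared groups alone, other pseudocounts (1 and 64), quantile normalization and leaving out each array. Rab genes, roles and lists were chosen with earlier results of these data known.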

Additional observations from a re-analysis of the deposited data

Results flagged for a closer look

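Rab12, Rab30, Rab31 and Rab3a lay to one side of wild type in every adult mutant ovary. They lay to the other side in every P3 KO pool, by little in Rab31 and Rab3a, so that groups at neither age overlapped. The difference between the ages was not tested, and the ages differ in platform, in unit and in how the mutation was made. Rab12 was higher in adult mutant ovaries (0.78) and lower in KO pools (-0.72, limma adjusted p = 0.59), with P3 signals of 422.2 and 243.2 in wild-type and 202.5 and 176.6 in KO pools. Rab31 differed by 1.26 in the adult and -0.11 at P3 (adjusted p = 0.89), with signals of 1047.0 and 932.2 against 919.5 and 909.0. Rab30 differed by 0.69 and -0.21 (adjusted p = 0.902). Rab3a differed by -0.74 and 0.03 (adjusted p = 0.973), with P3 signals of 1729.4 and 1771.2 in wild-type and 1781.3 and 1787.6 in KO pools. Each of the 4 had 2 probe sets at P3. The dimmer probe set of Rab31 (0.27) and of Rab30 (0.08) differed in the adult direction, so for these genes the opposite sign rests on the probe set used, while that of Rab12 (-0.03) and of Rab3a (0.31) had the sign of the one used. At P3 none of the 4 was called, and 38.9% of all genes had P3 groups that did not overlap (19.3% with the KO higher and 19.7% with the KO lower).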

How the results depend on the processing

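With a 2-fold minimum the counts of higher and lower Rab genes were 5 and 1 in mutant against wild-type ovary, 2 and 18 in testis against wild-type ovary, and 20 and 1 in mutant ovary against testis. With the 2 ovary groups fitted alone, mutant against wild-type ovary gave 7 higher and 1 lower. Among genes above the median level alone it gave 1 lower, since Rab33a was then not tested, and 12 higher, with Rab30 not tested and Rab28 gained. Leaving out 1 array at a time gave 9 to 13 higher and 1 to 3 lower in mutant against wild-type ovary, 4 to 6 and 31 to 37 in testis against wild-type ovary, and 35 to 42 and 5 to 6 in mutant ovary against testis. The difference of Rab27a in mutant and in testis against wild-type ovary was -3.53 and -3.57 without wild-type ovary 1 and turned to 0.11 and 0.06 without wild-type ovary 2. Of the 14, 42 and 44 Rab calls of these comparisons, 8, 32 and 39 were kept in every alternative that tested the gene, the 2-fold minimum aside. At P3 every alternative that kept all 4 pools gave 0 called Rab genes. This carries little weight, since few genes of the array were called at P3. The main fit called 25 higher and 34 lower of 18194, and without the intensity trend no gene was called. Leaving out a pool leaves a single pool in its group, too few to judge a call.

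With the replicate number as a block, mutant against wild-type ovary gave 9 higher and 2 lower Rab genes (Rab4b at 0.51, Rab6a at 0.36 and Rab18 at 0.48 lost their calls), testis against wild-type ovary 6 and 35, mutant ovary against testis 40 and 5, and P3 0 and 0. In mutant ovary against testis every array correlated best with its own number (r of 0.0575 to 0.079), a hint from the data and not from the design. Over all genes at P3 the block gave 153 higher and 152 lower, against 25 and 34 without it. The wild-type group of 2 animals and the 2 pools a group at P3 set the precision, and dim probe sets such as Rab26 and Rab9b lie near the pseudocount of 16.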
